A study of Mus musculus with 2 samples.

Results

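The genes of adenosine signalling and adenosine metabolism were described in the mouse hippocampus: the 4 adenosine receptors Adora1, Adora2a, Adora2b and Adora3, the ectoenzyme gene Nt5e, the transporter gene Slc29a1, and the genes Adk and Ada of the enzymes that remove adenosine. They were chosen by gene symbol and make up 8 of the 55536 annotated genes in the tables. The series holds 2 total RNA libraries in 1 group, from tissue labelled layer of hippocampus, with no layer named, of female B6CASTF1/J mice (first-generation hybrids of C57BL/6J and the wild-derived CAST/EiJ strain) at 2 months of age, with 300 ng of starting RNA and added spike-in RNAs in each. The labels call them biological replicates, with a tissue record each but a shared donor record. They do not say plainly that the tissue came from different animals, so the spread may in part be technical. No treatment or mutation is named, so there was no contrast of conditions. The question addressed here is which of these genes the tissue expressed, at what level and from which transcripts.

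Adenosine is formed outside cells when ectonucleotidases strip phosphates from released ATP, and inside cells from AMP and S-adenosylhomocysteine. It acts on 4 G protein-coupled receptors, of which the A1 and A3 types inhibit adenylyl cyclase and the other two types stimulate it. In the hippocampus, adenosine is best known for damping glutamate release through A1 receptors. Equilibrative transporters carry it across the cell membrane, and adenosine kinase, in the adult brain mainly an astrocyte enzyme, returns it to AMP.

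Annotated genes received 29490900 expected counts in replicate 1 and 30691917 in replicate 2. Neuronal markers (Rbfox3, Snap25, Slc17a7 and Gad1) were all detected, with summed levels of 1670 and 1610 TPM in replicates 1 and 2, which fits the labelled brain tissue. TPM is a transcript abundance per length, scaled to a fixed total per library. Summed astrocyte markers stood at 938 and 1005 TPM and summed microglial markers at 117.0 and 117.2 TPM. Red blood cell and choroid plexus markers differed most between the libraries, with 328 TPM in replicate 1 and 583 TPM in replicate 2 for the blood list and 129 TPM and 72.2 TPM for the choroid plexus list. The choroid plexus sum was carried by Ttr (121 and 65.7 TPM), while Kl had 4.51 and 4.09 TPM and Sostdc1 2.03 and 2.00 TPM. Folr1 was lower in replicate 2, as Ttr was, with 1.11 and 0.45 TPM from 18 and 6 counts. In bulk tissue, fewer cells of a type and less RNA per cell cannot be told apart.

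A gene was counted as detected where both libraries gave it at least 1 TPM. Of the 8 genes, 6 were detected (75%), beside 12773 of 22015 nuclear protein-coding genes (58.0%). The median level of the 8 genes was 2.11 TPM, with 2.29 TPM in replicate 1 and 1.93 TPM in replicate 2, against a median of 3.25 TPM over nuclear protein-coding genes. Adora1 and Adk lay far above that median, Slc29a1 was moderately above it, and Adora2b, Nt5e, Adora2a, Ada and Adora3 lay below it.

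**Figure D1:**
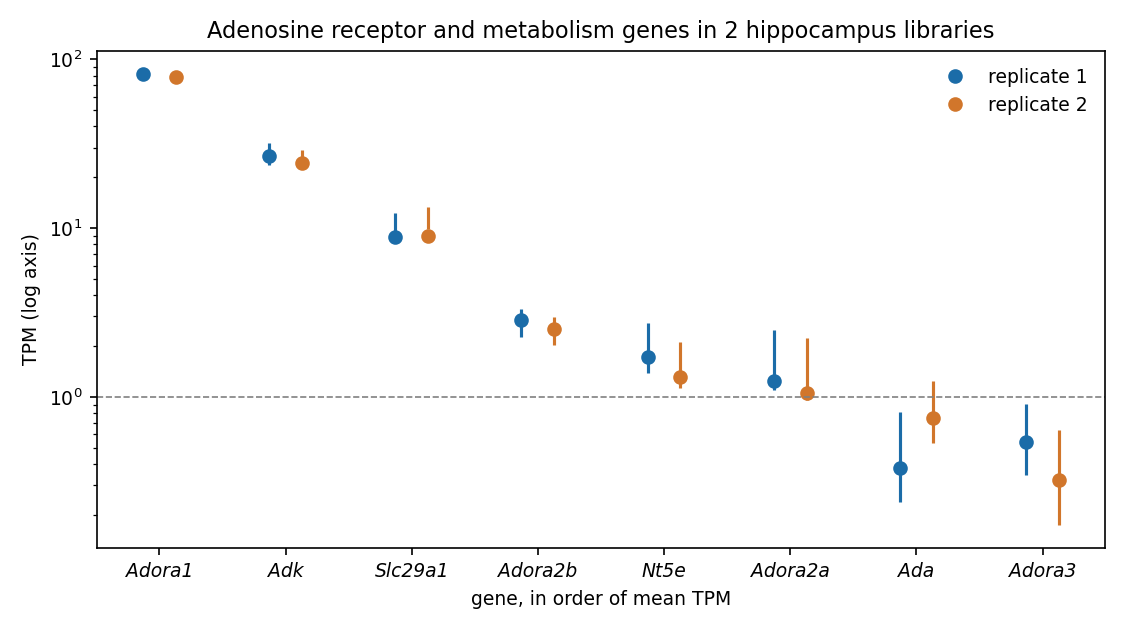
Level of each of the 8 genes in TPM (log axis) in replicates 1 and 2. Points are the deposited gene values, vertical lines the authors' deposited interval for the same gene and library, and the dashed line marks 1 TPM. Adora1 stands highest at 82.2 and 79.0 TPM, and Ada and Adora3 lie below 1 TPM in both libraries.

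Adora1 encodes the A1 receptor, which couples to inhibitory G proteins. The gene (ENSMUSG00000042429.8) lies on the minus strand of mm10 chr1:134199223-134235431. Its level was 82.2 TPM in replicate 1 (7369 counts, deposited interval 77.2 to 82.6 TPM) and 79.0 TPM in replicate 2 (7371 counts, 74.5 to 79.3 TPM), a mean of 80.6 ± 2.21 TPM (SD, n = 2 here and below). Both libraries gave nearly the same level. Adora1 ranked 1032 among the 22015 nuclear protein-coding genes, above 95.3% of them. It made up 94.7% of the summed TPM of the 4 receptor genes in replicate 1 and 95.3% in replicate 2.

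The 250 bases before the RefSeq start of Adora1 that lies nearest to an annotated transcript start are shown because this gene carries most of the receptor transcripts. They span chr1:134235458-134235707 of GRCm38.p6, are read on the minus strand, and 26 bases lie between their end and the first base of transcript Adora1-202. Capitals mark GGGCGG or its reverse complement CCGCCC, the letters of a GC box.
Adora1 start: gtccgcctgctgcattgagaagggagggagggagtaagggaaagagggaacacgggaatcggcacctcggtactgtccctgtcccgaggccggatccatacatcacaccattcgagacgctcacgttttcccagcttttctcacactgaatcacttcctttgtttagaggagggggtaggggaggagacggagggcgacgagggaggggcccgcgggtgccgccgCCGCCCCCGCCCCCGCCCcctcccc
This stretch was 64.4% G or C and held 19 CpG dinucleotides, 3 GC boxes side by side near its end, no CCAAT or ATTGG and no TATAAA. The other RefSeq start of Adora1 lies 278 bases from that of its nearest transcript, Adora1-203. Its window of 300 bases was 66% G or C and held no GC box.

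The annotation gives Adora1 3 transcripts with a complete coding sequence of 978 bases, and the coding bases of Adora1-201, Adora1-202 and Adora1-203 are identical. They differ outside it, in their starts and in their untranslated exons. Adora1-201 and Adora1-202 start at position 134235397 and 134235431, and Adora1-203 starts downstream at 134234578. Adora1-203 had 33.3 TPM in replicate 1 and 30.5 TPM in replicate 2, a share of 39.6 ± 1.41% of the gene's TPM. Adora1-202 had 25.3 and 23.8 TPM (30.4 ± 0.463%), and Adora1-201 had 17.98 and 20.00 TPM (23.6 ± 2.42%). The incomplete model Adora1-204 took 6.42 ± 0.543%. Transcripts that begin at the upstream first exon thus made up 60.4 ± 1.41% of the Adora1 TPM.

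A second deposited quantification of the same libraries split Adora1 in another order. There Adora1-202 led with 46.4 ± 1.89%, followed by Adora1-201 with 34.0 ± 1.71% and Adora1-203 with 19.6 ± 3.59%, and Adora1-204 was at 0. The share from the upstream first exon was 80.4 ± 3.59% in that table. In both tables the upstream first exon held the larger share in both libraries, while the leading transcript differed.

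Adora2a encodes the receptor that couples to stimulatory G proteins and is known for its high level in the striatum. The gene (ENSMUSG00000020178.6) lies on the plus strand of chr10:75316877-75334784. It had 1.25 TPM in replicate 1 (58 counts, deposited interval 1.10 to 2.50 TPM) and 1.06 TPM in replicate 2 (51 counts, 0.963 to 2.24 TPM), a mean of 1.16 ± 0.134 TPM. Both libraries were just above the detection threshold. The transcript with the whole coding sequence, Adora2a-201, took 81.8 ± 0.112% of the gene's TPM, and 59.3 ± 7.46% in the second quantification. Of the shorter coding models, Adora2a-204 held 11.1% and 18.1%, and 17.8% and 35.4% in the second quantification. Adora2a-203 held 7.14% in replicate 1 and was at 0 in replicate 2, with 28.2% and 0 in the second quantification. In the first quantification these shares rest on 1.51 and 2.18 expected counts for Adora2a-204 and 0.82 for Adora2a-203. By expected counts, Adora2a-201 held 95.9% of the gene on average.

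Markers of striatal projection neurons were measured beside it. Of the 7 markers, 4 were detected, and their summed level was 46.7 TPM in replicate 1 and 51.4 TPM in replicate 2. The sum was mostly Ppp1r1b, which encodes the phosphatase inhibitor DARPP-32 (19.2 and 22.0 TPM), Penk, which encodes proenkephalin (16.3 and 17.6 TPM), and Rgs9, a regulator of G protein signalling (6.89 and 6.33 TPM). The dopamine receptor gene Drd1 stood at 2.10 and 3.38 TPM and Drd2, which striatal Adora2a neurons carry, at 1.24 and 0.92 TPM. The orphan receptor gene Gpr6 was lowest, with 0.25 and 0.42 TPM. The part of such cells in the Adora2a level was not tested.

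Adora2b encodes a receptor of low affinity for adenosine that also couples to stimulatory G proteins. The gene (ENSMUSG00000018500.2) lies on the plus strand of chr11:62248984-62266453 and has 1 transcript with a share of 100%. It had 2.85 TPM in replicate 1 (108 counts, interval 2.27 to 3.32 TPM) and 2.53 TPM in replicate 2 (100 counts, 2.02 to 2.98 TPM), a mean of 2.69 ± 0.226 TPM. This placed Adora2b second among the receptor genes and above 48.3% of the nuclear protein-coding genes.

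Adora3 encodes the A3 receptor, which in the mouse is known from mast cells and microglia. The gene (ENSMUSG00000000562.5) lies on the plus strand of chr3:105870858-105908926. It had 0.54 TPM in replicate 1 (21.9 expected counts, interval 0.346 to 0.911 TPM) and 0.32 TPM in replicate 2 (8 counts, 0.174 to 0.637 TPM), a mean of 0.43 ± 0.156 TPM. Both values were below the detection threshold. All 4 mast cell markers were below it too, with summed levels of 0.99 and 1.27 TPM, while all 5 microglial markers were detected.

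The Adora3 value is uncertain. The gene shares exon bases on the same strand with Tmigd3, and the authors' counting could split reads between them. Tmigd3 had 2.12 counts in replicate 1 and 10 counts in replicate 2, and the sum of both genes was 24 and 18 counts. In the second quantification Tmigd3 had 2 and 2.52 counts and the sum was 53.2 and 48.1 counts, so the total itself differed between the tables. The split within Adora3 also moved. Adora3-201, with a coding sequence of 957 bases, held 64.8% of the gene's TPM in replicate 1 and was listed at 0 in replicate 2, where Adora3-202, of 519 coding bases, took 100%. In the second quantification Adora3-201 led in both libraries with 93.5% and 80.5%, the retained intron model Adora3-203 held 6.52% and 19.5%, and Adora3 stood at 1.65 and 1.49 TPM.

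Within each library, Adora1 exceeded every other receptor gene by more than 3 times the SD of the log2 ratio between the libraries, the size rule used for all pairs. With 2 libraries an exact test cannot reach 0.05, so no p-values are given. Adora1 stood 6.13 ± 0.13 above Adora2a on the log2 TPM scale (70.0-fold), 4.91 ± 0.08 above Adora2b (30.0-fold) and 7.60 ± 0.49 above Adora3 (194-fold). The second quantification gave 51.6-fold, 28.8-fold and 81.4-fold. The deposited intervals were also separate for all 3 pairs in both libraries.

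Nt5e encodes ecto-5′-nucleotidase (CD73), the membrane-anchored enzyme that turns extracellular AMP into adenosine. The gene (ENSMUSG00000032420.8) lies on the plus strand of chr9:88327197-88372092. It had 1.73 TPM in replicate 1 (123 counts, interval 1.38 to 2.75 TPM) and 1.32 TPM in replicate 2 (113 counts, 1.13 to 2.11 TPM), a mean of 1.53 ± 0.290 TPM. Its level lay above 43.8% of nuclear protein-coding genes. Nt5e-201, which holds the coding sequence of 1728 bases, took 80.1 ± 7.88% of the TPM, and 79.6 ± 2.20% in the second quantification. The models without a coding sequence were Nt5e-202 with 7.51% and 7.52%, Nt5e-203 with 3.47% and 6.77%, and Nt5e-204 with 14.5% in replicate 1 and 0 in replicate 2. The Nt5e-204 share rests on 1 expected count for a model of 280 bases. By expected counts, Nt5e-201 held 88.6% of the gene on average. In the second quantification Nt5e-202 held 13.6% and 8.12%, Nt5e-203 held 5.25% and 13.8%, and Nt5e-204 was at 0.

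Slc29a1 encodes the equilibrative nucleoside transporter ENT1, which lets adenosine pass the cell membrane in either direction. The gene (ENSMUSG00000023942.15) lies on the minus strand of chr17:45585200-45599606. It had 8.80 TPM in replicate 1 (282 counts, interval 8.79 to 12.3 TPM) and 8.97 TPM in replicate 2 (319 counts, 9.83 to 13.4 TPM), a mean of 8.89 ± 0.120 TPM. In replicate 2 the value lies below its own deposited interval, so these intervals are not centred on the TPM. Slc29a1 exceeded Nt5e by 2.56 ± 0.30 on the log2 TPM scale, a 5.88-fold difference past 3 SD.

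Slc29a1 has 25 annotated transcripts, of which 9 had counts in replicate 1, 9 in replicate 2 and 6 in both. Slc29a1-202 led with 32.2 ± 8.14% of the TPM, and with 28.3 ± 2.98% in the second quantification. Slc29a1-203 followed with 20.7 ± 1.14%, against 1.40 ± 1.98% in the second quantification. The other 8 models that reached 5% somewhere (Slc29a1-201, Slc29a1-204, Slc29a1-205, Slc29a1-212, Slc29a1-213, Slc29a1-216, Slc29a1-223 and Slc29a1-224) ranged from 0 to 14.5% in the first quantification, the highest being Slc29a1-224 in replicate 2. In the second they ranged from 0 to 27.8%, the highest being Slc29a1-212 in replicate 1, a model at 0 in both libraries of the first. Grouped by coding sequence the tables lay closer together. The 3 transcripts that share a coding sequence of 1374 bases held 39.8 ± 2.26%, and 39.8 ± 2.81% in the second quantification. The 4 that share a coding sequence of 1380 bases held 24.8 ± 4.63%, and 19.2 ± 1.25%.

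**Figure D2:**
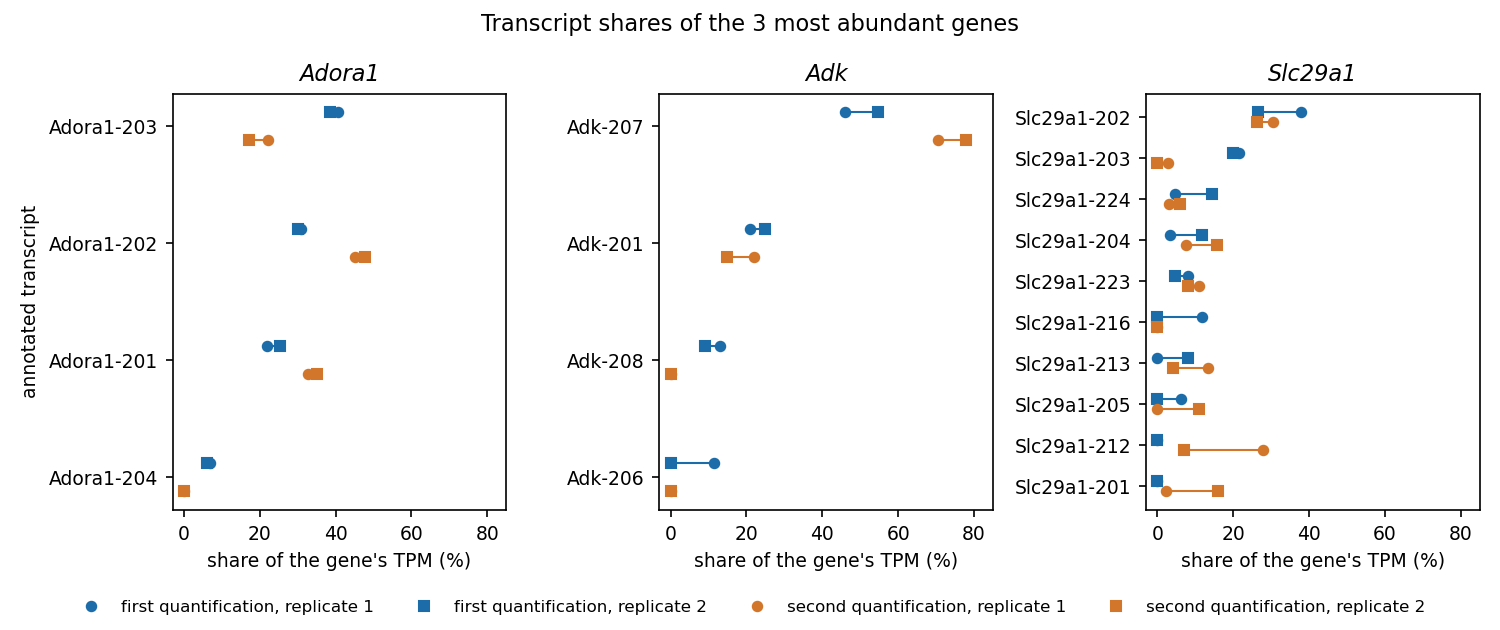
Share of the gene's TPM (%) for the Adora1, Adk and Slc29a1 transcripts that reached 5% in any library, in the first and the second quantification (colours) and in replicates 1 and 2 (marker shapes, joined by a line). Adk-207 leads Adk in both quantifications, with 50.3% and 74.2% on average, while Adora1-203 leads Adora1 in the first and Adora1-202 in the second.

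Adk encodes adenosine kinase, which phosphorylates adenosine to AMP and sets its level in the brain. The gene (ENSMUSG00000039197.10) lies on the plus strand of chr14:21052574-21448569. It had 26.7 TPM in replicate 1 (791 counts, interval 23.6 to 31.9 TPM) and 24.4 TPM in replicate 2 (852 counts, 22.4 to 29.2 TPM), a mean of 25.5 ± 1.59 TPM. Adk was the second highest of the 8 genes and lay above 81.7% of nuclear protein-coding genes.

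Adenosine kinase is known in a long, nuclear form and a short, cytosolic form, made from alternative first exons. In the annotation these are Adk-201, with 361 codons, and Adk-207, with 345 codons. Their first exons lie at chr14:21052574-21052700 and chr14:21076152-21076321, 23578 bases apart from start to start. Of the 10 later exons, 9 are identical. The start of each coding sequence is shown because it is what separates the forms. Capitals mark the coding bases of the first exon, 62 in the long form and 14 in the short form, and lower case the first 18 bases of the shared second exon. The sequences are those of the annotated GENCODE M21 transcripts.
Adk-201 (long form): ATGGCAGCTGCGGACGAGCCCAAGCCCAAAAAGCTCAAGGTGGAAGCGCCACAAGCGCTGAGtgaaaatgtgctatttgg
Adk-207 (short form): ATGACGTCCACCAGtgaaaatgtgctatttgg

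Of Adk-207 and Adk-201, the short form Adk-207 was the more abundant in both libraries. Adk-207 had 12.3 TPM in replicate 1 and 13.3 TPM in replicate 2, against 5.56 and 6.09 TPM for Adk-201. The difference was 1.14 ± 0.01 on the log2 TPM scale, or 2.20-fold, far past 3 SD. Of the TPM of these 2 transcripts, the short form held 68.8% in replicate 1 and 68.6% in replicate 2. In the second quantification Adk-207 had 25.5 and 28.2 TPM, against 7.98 and 5.34 TPM for Adk-201, a 4.11-fold difference with a short-form share of 76.2% and 84.1%.

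Further Adk transcripts start near the upstream first exon. Adk-208, of 392 bases, took 12.9% and 9.01% of the gene's TPM, and Adk-206, of 617 bases, took 11.4% in replicate 1 and was at 0 in replicate 2. Both were at 0 in the second quantification. Adk-206 starts at position 21052645, inside the first exon of Adk-201, so its 3.04 TPM in replicate 1 may belong to the long form. The longer retained intron models Adk-205 (1.80% and 2.21%) and Adk-210 (1.72% and 2.54%) had TPM in both quantifications. With every transcript that starts within 2000 bases of the upstream end of the gene, the upstream share was 52.3% in replicate 1 and 42.5% in replicate 2, and in the second quantification 27.1% and 21%. Adk-207 alone held 46.0% in replicate 1, below that upstream share, and 54.6% in replicate 2, above it. In the second quantification Adk-207 held 70.5% and 77.9%. Adk-207 therefore exceeded Adk-201 in both tables, while the share of all upstream starts changed with the quantification. In the first quantification the order of Adk-207 and all upstream starts differed between the libraries.

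The 250 bases before each of the 2 Adk starts are shown because the forms come from different first exons. Both are from RefSeq windows on GRCm38.p6, plus strand, at chr14:21052324-21052573 for the long form and chr14:21075902-21076151 for the short form. Capitals mark GC boxes (GGGCGG or CCGCCC) and CCAAT or its reverse complement ATTGG.
Adk long form start: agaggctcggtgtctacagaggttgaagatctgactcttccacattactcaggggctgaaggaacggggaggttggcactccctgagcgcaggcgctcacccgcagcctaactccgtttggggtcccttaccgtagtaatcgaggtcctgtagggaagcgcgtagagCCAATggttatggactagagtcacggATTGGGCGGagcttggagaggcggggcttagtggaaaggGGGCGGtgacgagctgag
Adk short form start: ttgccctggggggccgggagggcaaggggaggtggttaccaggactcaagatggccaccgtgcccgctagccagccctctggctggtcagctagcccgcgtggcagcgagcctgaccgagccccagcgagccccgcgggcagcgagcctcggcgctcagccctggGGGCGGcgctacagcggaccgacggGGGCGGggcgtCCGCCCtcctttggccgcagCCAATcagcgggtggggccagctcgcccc
The long form stretch was 58.8% G or C, with 15 CpG dinucleotides, 2 GC boxes and 2 CCAAT letters, 1 of which overlaps a GC box. The short form stretch was 75.2% G or C, with 24 CpG dinucleotides, 3 GC boxes and 1 CCAAT. Neither held TATAAA.

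RefSeq windows of 300 bases (250 before and 50 after a start) were found for 7 of the 8 genes, 16 windows in all, 8 of them for Slc29a1. Adora2a has no entry there. Searched on both strands, GGGCGG was found in 11 of 16 windows (68.8%), against 35.7% of all 32851 windows. CCAAT was found in 5 windows (31.3%), against 37.4%, and TATAAA in 0 of 16, against 13.6%. The Adora3 window held 1 CpG, the fewest of the 16. It held none of these motifs, and neither did the second Adora1 window and some of the Slc29a1 windows. These are letter matches and not sites of binding. The median over all windows was 52.7% G or C, and of these 16 only the Adora3 window (48.3%) lay below it. The part of base composition in the GGGCGG share was not tested.

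Ada encodes adenosine deaminase, which turns adenosine into inosine. The gene (ENSMUSG00000017697.3) lies on the minus strand of chr2:163726584-163750239, and its transcript Ada-201 took 100% of the TPM. It had 0.38 TPM in replicate 1 (13 counts, interval 0.237 to 0.817 TPM) and 0.75 TPM in replicate 2 (27 counts, 0.534 to 1.24 TPM), a mean of 0.565 ± 0.262 TPM. Both values were below the detection threshold. The summed red blood cell markers were higher in the same library as Ada, at 328 TPM in replicate 1 and 583 TPM in replicate 2, and their part in the Ada value was not tested.

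Of the 2 genes that remove adenosine, Adk exceeded Ada by 5.58 ± 0.78 on the log2 TPM scale (47.8-fold), past 3 SD and with separate intervals in both libraries. The second quantification gave 42.3-fold. Adk also exceeded Nt5e, by 4.08 ± 0.19 (16.9-fold).

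In the order of mean TPM the 8 genes run Adora1, Adk, Slc29a1, Adora2b, Nt5e, Adora2a, Ada, Adora3, and 5 of the 7 neighbouring pairs differed past 3 SD. The order was made from these same values, so the direction of each mean difference was set in advance. With an SD from 2 libraries, some pairs can pass 3 SD by chance, and the count describes size only. Adora1 stood 1.66 ± 0.05 above Adk on the log2 TPM scale, Adk 1.52 ± 0.11 above Slc29a1, and Slc29a1 1.73 ± 0.14 above Adora2b. These 3 pairs also had separate deposited intervals in both libraries. Adora2b stood 0.83 ± 0.15 above Nt5e and Nt5e 0.39 ± 0.11 above Adora2a, but their intervals overlapped. In the second quantification the Nt5e over Adora2a ratio was -0.01 ± 0.29. Adora2a over Ada (1.11 ± 0.86) and Ada over Adora3 (0.36 ± 1.23) were within 3 SD, and the order of Ada and Adora3 was opposite in the 2 libraries.

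TPM values were higher in the second quantification for all 8 genes, and for most genes. Over 12741 detected protein-coding genes the median of second over first was 1.71-fold, or 0.78 on the log2 scale, with a middle range of 1.58- to 1.93-fold. Relative to that median, Adora1 (0.923), Adora2b (0.966), Ada (0.933), Nt5e (0.940) and Slc29a1 (1.02) kept their place closely. Adk was at 0.828 and Adora2a at 1.27 times the median shift. Adora3 was at 2.13 times, a larger shift than in 99.3% of these genes.

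**Figure D3:**
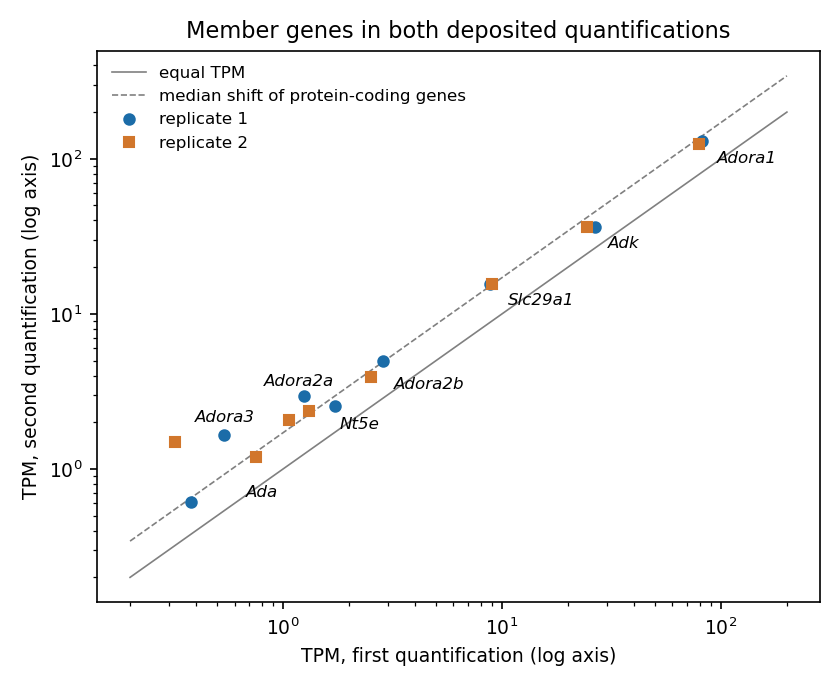
TPM of the 8 genes in the first (horizontal) and second (vertical) quantification, both on log axes, for replicates 1 and 2. The solid line marks equal TPM and the dashed line the median shift of protein-coding genes, 1.71-fold. Adora3 lies furthest above the dashed line and Adk below it.

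Differences between the 2 libraries were at most 0.25 in size on the log2 scale for the 6 genes with enough counts. On the log2 scale, replicate 2 over replicate 1 (counts with 0.5 added, scaled by edgeR's TMM factors) was -0.06 for Adora1, 0.04 for Adk, 0.11 for Slc29a1, -0.17 for Adora2b, -0.18 for Nt5e and -0.25 for Adora2a. None of these 6 reached 1 in size, beside 0.529% of the 15509 genes with a mean CPM, the count scaled by library size, of at least 1. None reached 0.5 either, beside 4.02% of all. At these shares, none among 6 genes is close to the background and is no trait of these genes. Their median size was 0.14, against 0.08 over all 15509, so they did not differ less than other genes. Adora3 (-1.47) and Ada (0.96) lay below the CPM minimum. With 1 library against 1 library these ratios have no test.

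**Figure D4:**
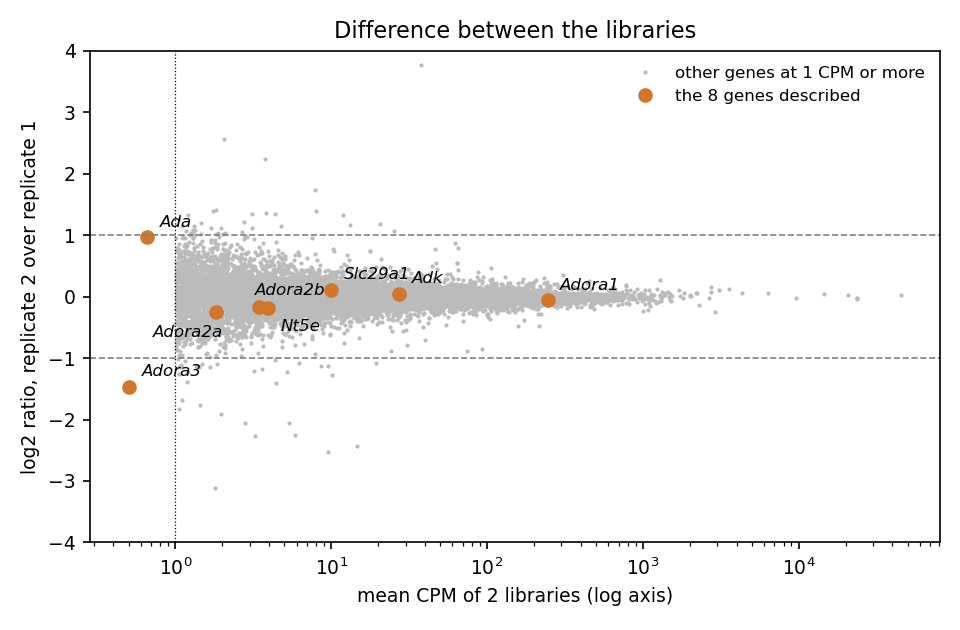
Log2 ratio of replicate 2 over replicate 1 against mean CPM (log axis) for the 8 genes and for all genes at 1 CPM or more (dotted line). Dashed lines mark ratios of -1 and 1, and 11 of the 15509 genes lie outside the plotted range of -4 to 4. The 6 genes above 1 CPM lie between -0.25 and 0.11, and Adora3 and Ada lie left of the dotted line.

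The other genes of adenosine and ATP handling were taken as 10 lists with 72 genes. Of these, 52 were detected (72.2%), beside 58.0% of nuclear protein-coding genes, with a median of 6.65 TPM. None of the 54 that passed the CPM minimum differed by 1 on the log2 scale between the libraries, beside 0.529% of all 15509 such genes. At that share, none among 54 is close to the background. The largest ratio was that of Xdh, encoding xanthine dehydrogenase, at 0.74 (230 counts in replicate 1 and 401 in replicate 2). Xdh was picked out after its values were seen. Only 6 of the 72 genes exceeded Adora1 in mean TPM: Ak5, Ahcyl1, Ahcyl2, Gnas, Gnao1 and Gnai2. In the second quantification Enpp2 (137 TPM) and Gnaq (133 TPM) also exceeded Adora1 (127 TPM).

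Among the ectonucleotidases, 6 of 9 were detected. Enpp2 led with 61.1 and 58.3 TPM (59.7 ± 2.03). It encodes autotaxin, best known for making lysophosphatidic acid and abundant in choroid plexus and oligodendrocytes. The choroid plexus markers Ttr, Kl, Sostdc1 and Folr1 are given above, and summed oligodendrocyte markers stood at 805 and 894 TPM. The part of these cells in the Enpp2 level was not tested. Entpd1, which encodes CD39, the enzyme that turns ATP and ADP into AMP, had 7.48 and 6.72 TPM (7.10 ± 0.537), and Entpd2, for an ectoenzyme that prefers ATP, had 5.89 and 5.71 TPM (5.80 ± 0.127). All 3 lay above Nt5e, whose enzyme acts on the AMP that CD39 makes. Entpd8 had 0 counts in both libraries.

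Among the nucleoside transporters, 3 of 6 were detected. Slc29a4, which encodes a plasma membrane monoamine transporter that also carries adenosine, had 23.3 and 22.5 TPM (22.9 ± 0.544), above Slc29a1. Slc29a2, for the transporter ENT2, had 6.93 and 6.53 TPM (6.73 ± 0.283), and Slc29a3, for an intracellular ENT3, had 5.05 and 7.14 TPM (6.10 ± 1.48). Slc28a1, a concentrative transporter gene, was the lowest with 0.03 and 0 TPM.

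Inside cells, 6 of 7 genes in the list named cytosolic 5′-nucleotidases were detected, among them Nt5m, whose enzyme is mitochondrial. These enzymes differ in the nucleotides they prefer, so the levels do not measure how much adenosine is formed from AMP. Nt5c2 had 33.7 and 33.0 TPM, Nt5c 27.6 and 25.1 TPM, and Nt5c3b 22.2 and 22.8 TPM, all above the 1.53 TPM of the ectoenzyme gene Nt5e. Nt5c1b was the lowest at 0.07 and 0 TPM. Of the 12 genes in the list named AMP and adenosine interconversion, 11 were detected. The list was led by the adenylate kinase genes Ak5 (95.3 and 95.7 TPM) and Ak1 (48.5 and 47.9 TPM) and the AMP deaminase gene Ampd2 (29.9 and 30.0 TPM). Adenylate kinases and AMP deaminases act on AMP and not on adenosine itself, so the list's level is not one of adenosine turnover. Ampd1, known as the muscle AMP deaminase, had 0 counts.

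S-adenosylhomocysteine hydrolysis is a further source of adenosine, and all 3 genes of the list were detected. Ahcy, which encodes the hydrolase itself, had 6.04 and 6.33 TPM. The related genes Ahcyl1 (129 and 135 TPM) and Ahcyl2 (81.1 and 103 TPM) were far higher. They resemble Ahcy in sequence and are known as regulators of the inositol trisphosphate receptor and of ion transport, so the list's level is not that of the hydrolase.

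Among the genes of inosine and hypoxanthine handling, 5 of 6 were detected. Gda, encoding guanine deaminase, had 48.5 and 45.5 TPM, and Hprt, of purine salvage, had 47.0 and 43.3 TPM. Adal, an adenosine deaminase-like gene whose protein acts on methylated AMP, had 7.22 and 7.0 TPM, above Ada at 0.38 and 0.75 TPM. Pnp2, a purine nucleoside phosphorylase gene, was lowest with 0.60 and 0.42 TPM.

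Of the 6 genes for ATP release, 4 were detected, led by Panx2 (63.7 and 69.2 TPM), Lrrc8a, a volume-regulated channel subunit (22.8 and 22.2 TPM), and Panx1 (10.2 and 13.02 TPM). Calhm1 had 0 counts. Of the P2X receptor genes, which encode ATP-gated channels, 2 of 7 were detected, namely P2rx4 (4.81 and 5.86 TPM) and P2rx7 (4.64 and 3.82 TPM). P2rx3 lay next at 1.02 and 0.95 TPM, and P2rx2 was lowest at 0.05 and 0 TPM. Of the P2Y receptor genes 4 of 8 were detected, led by the microglial P2ry12 (17.2 and 15.1 TPM), then P2ry13 (3.43 and 3.66 TPM) and P2ry6 (1.61 and 1.41 TPM), and P2ry10 had 0 counts. A count of 0 allows up to 3 counts, or 0.102 CPM in replicate 1 and 0.0977 CPM in replicate 2, from counting error alone.

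All 8 genes for G protein alpha subunits were detected. The list was led by Gnas, for the stimulatory subunit (700 and 654 TPM), then Gnao1 (266 and 259 TPM) and Gnai2 (84.4 and 86.6 TPM), both of the inhibitory class to which the A1 receptor couples. Gnai3 was the lowest with 11.8 and 11.1 TPM. Gnas also yields several imprinted transcripts from other starts, which the gene value sums.

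**Figure D5:**
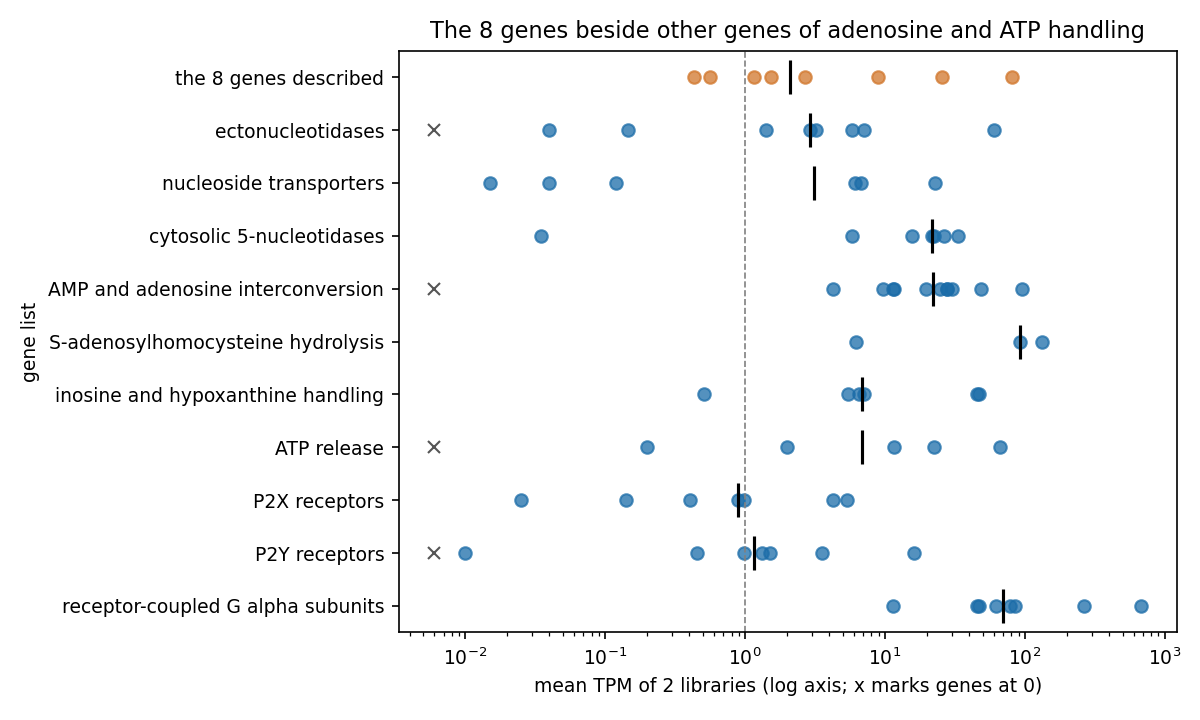
Mean TPM of the 2 libraries (log axis) for the 8 genes in the top row and for the 10 lists of related genes, with 1 point per gene, crosses for genes at 0, black ticks for medians and a dashed line at 1 TPM. The median is 2.11 TPM for the 8 genes and 70.2 TPM for the G alpha subunits, the second highest after the 92.1 TPM of the 3 S-adenosylhomocysteine genes.

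Reads antisense to a gene can be told apart only if strand was used in counting. Adora1 overlaps the exons of Mybph on the opposite strand, which had 2 and 0 counts, and Slc29a1 those of Gm17080, with 2 and 1 counts. Adk hosts Gm26372 without sharing exon bases. The reads were not split by parental allele, so the values pool reads from the C57BL/6J and CAST/EiJ copies. Whether reads from both copies were counted equally well was not tested.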

How the data were processed

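Per the file headers, the first deposited gene and transcript tables give each feature an expected count and its TPM, in RSEM's column layout. The bounds of a TPM interval, treated as a score, were deposited by the authors beside them, and the level of that interval is not known. A further transcript table, in the layout of kallisto, holds an estimated count and a TPM value per the file headers. It was summed per gene and is called the second quantification. Per the labels the assembly is mm10. The authors' software was not given in the sources used here.

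Gene identifiers were matched to the M21 annotation (55536 of 55536), and the second quantification covered 55450. Spike-in and tRNA entries took 0.378% and 0.368% of counts and were left out of library sizes. The libraries differed by more than counting error (chi-square per degree of freedom 3.59 over 14532 protein-coding genes with a mean of at least 10 counts), so they are not 1 library deposited repeatedly. Whether they come from different animals is not shown by this. Expected counts were rounded to whole numbers and scaled with TMM factors from edgeR 4.0.16 (limma 3.58.1, R 4.3.3). Ratios used 0.5 added counts and a minimum mean of 1 CPM. The ratio step was tested on simulated data. Pairs of genes were compared by their log2 TPM ratio in each library, without a pseudocount, and a mean ratio past 3 SD was called larger than the spread. No count model was fitted, as there is 1 group of 2 libraries. DESeq2 1.42.0 size factors were an alternative, with other thresholds, filters and pseudocounts, a rescaling over protein-coding genes, the second quantification, and leaving out either replicate. Promoter windows were RefSeq's on GRCm38.p6. Python 3.11.15 with pandas 2.3.3 and matplotlib 3.10.9 was used.

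All 8 genes were described in full, with every transcript at 5% or more of its gene's TPM in any library and quantification. Of each further list, the 3 highest genes, the lowest and those at 0 counts were named. The members and lists were chosen with earlier results of these data known. The values of some marker list members are not reported here.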

Additional observations from a re-analysis of the deposited data

How the results depend on the processing

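The median TPM of the 8 genes was 3.48 in the second quantification and 5.21 with TPM rescaled over nuclear protein-coding genes, which multiplies every value by 2.47 (1.31 on the log2 scale). It lay between 1.93 and 2.29 with either replicate left out. The count of detected genes stayed at 6 with either replicate left out, and was 4 at a threshold of 2 TPM and 7 in the second quantification. The number of neighbouring pairs that differ was 4 in the second quantification and 3 when separate deposited intervals were required. The number of genes apart between the libraries was 1 with no filter on low counts and 1 with a minimum mean of 10 counts, in both cases Adora3. Nt5e over Adora2a was -0.0084 in the second quantification, where the order differed between the libraries (-0.21 in replicate 1 and 0.20 in replicate 2). Ada over Adora3 reversed to -0.87 in the second quantification and ranged from -0.51 to 1.23 with a replicate left out (-0.51 without replicate 2). The causes were not tested. The count of pathway genes detected was 53 to 54 with a replicate left out. No paired analysis was possible because all samples form 1 group. Adora3 and Ada had 8 to 27 counts per library in the first quantification. In the second, Adora3 had 51.2 and 45.5 counts and Ada 13 and 26, and Adora3 lay above Ada in both libraries.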
